A study of Mus musculus with 20 samples.

Results

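The 10 genes described here, all of the regulated secretory pathway, were followed in 20 libraries of mouse AgRP neurons, the hunger-driving neurons of the arcuate nucleus that release AgRP and neuropeptide Y. They were chosen by symbol from 23129 genes in the deposited count table: the granins Vgf, Scg2, Scg3, Chga and Chgb, the granin-like chaperone Scg5, the convertases Pcsk1 and Pcsk2, the carboxypeptidase Cpe and the amidating enzyme Pam. All 10 of the 10 were found and all passed the filter on low counts, with a lowest count of 453 in any library. The study asks which genes differ between fed and fasted mice and how far this depends on PHF6, a chromatin-binding protein.

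The 4 groups held 5 libraries each and were named fasted cKO, fed cKO, fasted wild type and fed wild type. Mice of the cKO groups carried Phf6 flox/y, AgRP-Cre/+ and Ai9/+, so Phf6 was deleted where AgRP-Cre was active. Their wild-type littermates carried AgRP-Cre/+ and Ai9/+, so every group carried the Cre driver and the Ai9 reporter, which marks Cre-expressing cells with tdTomato. All were C57BL/6 mice aged P25 to P30, and fasted mice had water but no food from 5 pm on the previous day. From dissociated hypothalamic punches, 1000 tdTomato-positive cells were sorted per sample. A cell that expressed AgRP-Cre only earlier in life would also carry the label. The labels do not say whether each library came from its own mouse, so p-values measure the spread between libraries, part of which may be technical.

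Peptide hormones and neuropeptides are made as inactive precursors. Granins help to load these precursors into dense-core granules and are themselves cut into peptides. Inside the granule the convertases cut at pairs of basic residues, Cpe removes the basic residues that are left at the end, and Pam turns a terminal glycine into an amide. Neuropeptide Y, a peptide of AgRP neurons, is processed along this route. In other neurons and endocrine cells several granin genes and Pcsk1 are known targets of cAMP signalling through CREB, which binds the cAMP response element.

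That element is spelled TGACGTCA, and its core, called the short site here, is TGACG. RefSeq promoter windows of 300 bases on GRCm38.p6, from 250 bases before to 50 after each start, covered 8 of the 10 genes in 9 windows. Vgf and Cpe had no entry. Both strands were searched, and a full site holds a short site on either strand, so each full site also counts as a short one. The full site stood in 3 of the 9 windows, against 1.79% of the 32851 windows of all genes, and the short site stood in 7 of 9, against 20.8%. The AP-1 motif TGANTCA stood in 0 of 9, against 7.81%. The windows below are shown because they set 3 genes with the full site beside Chga, which has the short site alone. Capitals mark every TGACG on either strand, including those inside TGACGTCA. The Scg2 window is chr1:79439977-79440276 on the minus strand, with the full site ending 61 bases before the start. The Chgb window is chr2:132781392-132781691 on the plus strand, with the full site ending 65 bases before the start. The Pcsk1 window is chr13:75089607-75089906 on the plus strand, with the full site ending 71 bases and a separate short site ending 46 bases before the start. The Chga window is chr12:102554691-102554990 on the plus strand, with its short site ending 40 bases before the start. No binding was measured here, and a match describes letters in a window only.
Scg2: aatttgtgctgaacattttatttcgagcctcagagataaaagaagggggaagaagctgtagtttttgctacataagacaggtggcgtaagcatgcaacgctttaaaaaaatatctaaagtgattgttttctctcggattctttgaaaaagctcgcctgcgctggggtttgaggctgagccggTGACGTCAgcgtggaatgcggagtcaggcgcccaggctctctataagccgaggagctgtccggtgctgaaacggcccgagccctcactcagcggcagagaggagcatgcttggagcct
Chgb: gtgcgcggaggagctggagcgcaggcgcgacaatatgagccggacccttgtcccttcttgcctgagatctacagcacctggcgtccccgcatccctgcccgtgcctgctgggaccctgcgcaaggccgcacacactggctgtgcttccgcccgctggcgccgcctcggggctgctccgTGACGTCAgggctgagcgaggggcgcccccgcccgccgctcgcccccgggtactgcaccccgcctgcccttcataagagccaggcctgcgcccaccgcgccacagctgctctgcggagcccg
Pcsk1: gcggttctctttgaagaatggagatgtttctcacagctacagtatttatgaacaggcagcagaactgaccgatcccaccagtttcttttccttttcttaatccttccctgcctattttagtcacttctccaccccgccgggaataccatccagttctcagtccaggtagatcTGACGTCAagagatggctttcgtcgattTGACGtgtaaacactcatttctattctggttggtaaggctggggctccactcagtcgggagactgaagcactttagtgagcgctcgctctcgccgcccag
Chga: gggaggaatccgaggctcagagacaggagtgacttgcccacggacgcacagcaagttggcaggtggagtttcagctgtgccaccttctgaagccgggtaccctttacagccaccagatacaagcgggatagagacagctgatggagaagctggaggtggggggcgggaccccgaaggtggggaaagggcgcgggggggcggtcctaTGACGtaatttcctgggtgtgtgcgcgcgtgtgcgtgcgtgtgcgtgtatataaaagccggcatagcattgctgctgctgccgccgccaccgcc

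Library totals ran from 8494499 to 10000278 counts in fasted groups and from 10604977 to 13573524 counts in fed groups. Levels are given as CPM, read counts scaled to a common library size and adjusted by TMM, a factor that offsets differences in composition between libraries. Phf6 itself averaged 61.2 ± 6.9 CPM in fasted cKO, against 128 ± 11 CPM in fasted wild type, and 70.7 ± 4.85 CPM in fed cKO, against 276 ± 10.2 CPM in fed wild type (SD, n = 5 each). Agrp and Npy were abundant in every library. Summed marker levels did not exceed 1.52 CPM for oligodendrocyte precursors, 1.32 CPM for microglia or macrophages and 6.49 CPM for endothelial or mural cells. Astrocyte markers summed to 183 to 291 CPM and those of tanycytes or ependyma to 31.6 to 59 CPM over all libraries, and their part in the results was not tested. The 7 oligodendrocyte markers summed to 49.2 to 73.6 CPM in fasted libraries, against 82.6 to 105 CPM in fed libraries. The 5 Pomc neuron markers summed to 439.6 to 1101 CPM in fasted cKO, against 313 to 417 CPM in fed cKO, and to 379.9 to 471 CPM in fasted wild type, against 324 to 433 CPM in fed wild type. The 14 markers of other hypothalamic neurons summed to 608 to 1229 CPM in fasted cKO, against 205 to 388 CPM in fed cKO, and to 463 to 1149 CPM in fasted wild type, against 319.8 to 526 CPM in fed wild type. The part of these 3 lists was not tested either. In a bulk sample, fewer cells of a type and less RNA per cell cannot be told apart.

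The libraries numbered 1 and 2 stood apart from those numbered 3 to 5 in both fasted groups. Scg2 averaged 8558 CPM in libraries 1 and 2 of fasted cKO, against 6874 CPM in libraries 3 to 5, and 7959 CPM against 6675 CPM in fasted wild type. Chgb, Cpe and Pam were lower in libraries 1 and 2 in both fasted groups, without overlap, and in fasted wild type their ratios to libraries 3 to 5 were 0.631 for Chgb, 0.695 for Cpe and 0.761 for Pam. Agrp and Npy were higher in the same libraries. The labels name no batch that separates these numbers, so results that rest on either set are given with each.

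Scaled by exon length, Scg2 was the most abundant of the 10 transcripts in all 4 groups. It reached 3001 CPM per kilobase in fasted cKO, 1514 in fed cKO, 2858 in fasted wild type and 1136 in fed wild type. It ranked 6th of 12713 tested genes with a known length in both fasted groups, 7th in fed cKO and 10th in fed wild type. Scg5 and Cpe came next in every group, and no library of any of these 3 genes overlapped a library of its neighbour in the order.

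In fed wild type the order then ran through Scg3 at 87.7, Chgb at 75.9 and Chga at 55.4 CPM per kilobase, without overlap between neighbours. Vgf at 24.1 and Pam at 20.7 CPM per kilobase overlapped, and Pcsk1 at 14.0 and Pcsk2 at 5.67 CPM per kilobase closed the list. Vgf stood below Chga in both fed groups and above Chgb in both fasted groups, where it had 132 CPM per kilobase in cKO and 126 in wild type, though its libraries overlapped those of Chgb. Pcsk1 stood above Pam when fasted and below it when fed, but the fasted libraries of these genes overlapped. Lengths are those of all annotated exons together, which at 11892 bases for Pam and 7910 bases for Pcsk2 lower the scaled levels of these genes.

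**Figure D1:**
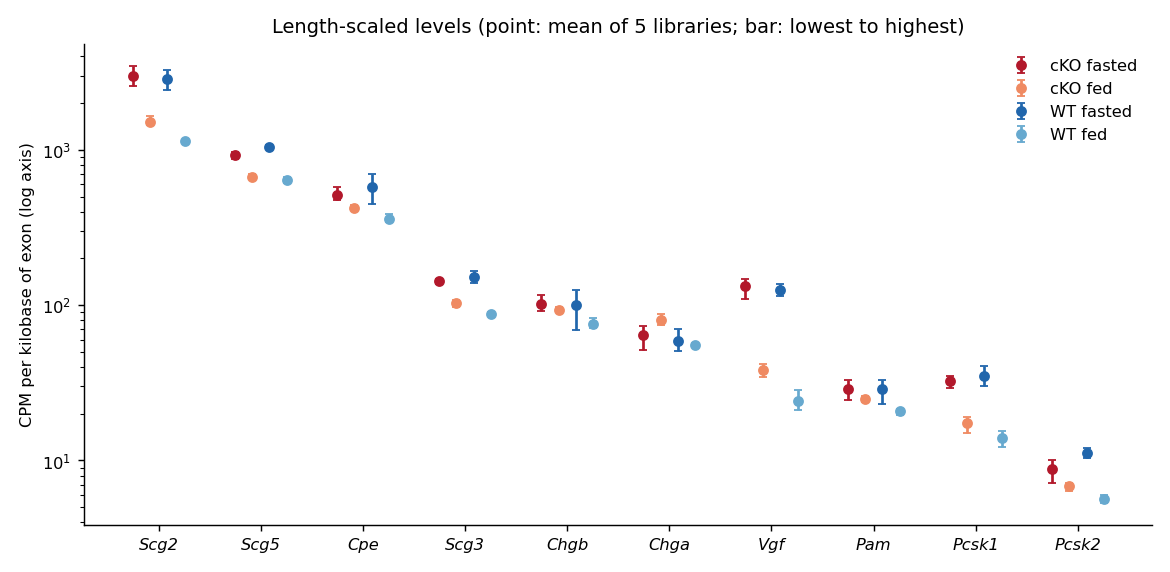
Length-scaled level of the 10 genes (CPM per kilobase of exon, log axis), ordered by fed wild type. Points are means of 5 libraries and bars run from the lowest to the highest library, and Vgf shows the widest gap between its fasted points (132 and 126) and its fed points (38.4 and 24.1).

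Fasting raised most of these transcripts in both genotypes. In cKO neurons 8 of the 10 were higher and 1 lower, with backgrounds of 26.0% higher and 27.0% lower among the 13237 tested genes. In wild-type neurons 9 of the 10 were higher and 0 lower, against 29.6% higher and 31.3% lower among all tested genes (edgeR quasi-likelihood test, adjusted p under 0.05). The median log2 fold change of the 10 genes was 0.41 in cKO and 0.74 in wild type, beside a median of -0.03 over all tested genes in each. The 5 fasted libraries lay wholly above the 5 fed libraries for 7 of the 10 genes in cKO, against 20% of all genes, and for 8 of the 10 in wild type, against 22.5%, and 0 of the 10 lay wholly below in wild type, against 22.6%. With library totals in place of TMM, which moved the median of all genes by -0.19 in cKO and -0.26 in wild type, 9 of the 10 in cKO and 10 of the 10 in wild type were still above that median, but Pcsk2 (edgeR adjusted p = 0.0597), Cpe (0.421) and Pam (0.916) in cKO and Chgb (0.263) in wild type did not pass. Chga was the 1 gene that lay wholly below, in cKO, against 19.6% of all genes. Together the 10 genes took 1.14 ± 0.0744% of all counts in fasted cKO, against 0.78 ± 0.0296% in fed cKO, and 1.11 ± 0.0415% in fasted wild type, against 0.639 ± 0.00488% in fed wild type (SD, n = 5 each).

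**Figure D2:**
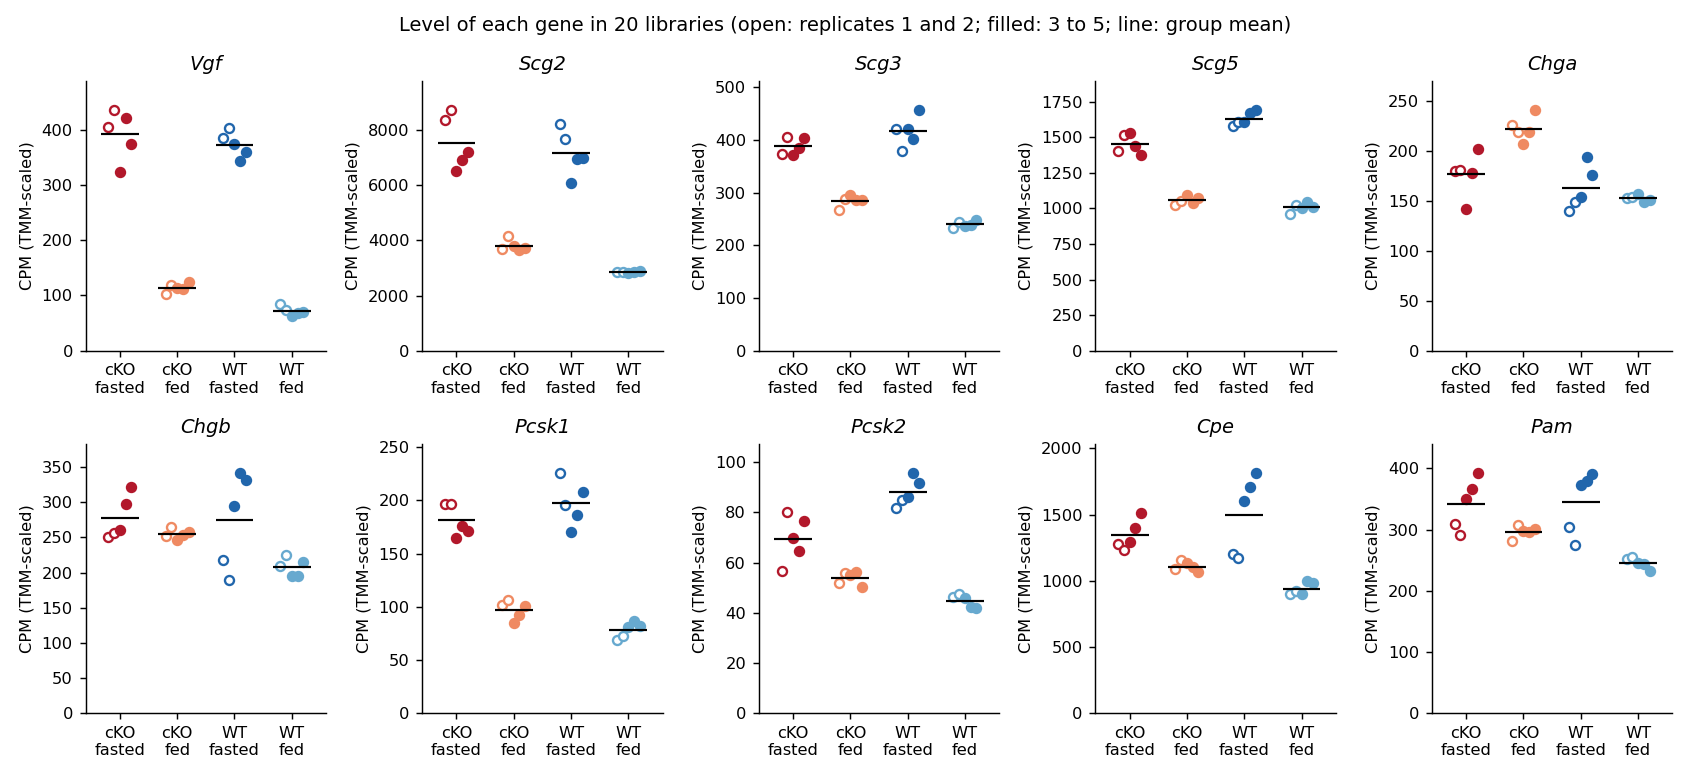
CPM of the 10 genes in each of 20 libraries, by group (vertical axes start at 0). Points are libraries, open for numbers 1 and 2 and filled for 3 to 5, and lines are group means. Vgf sits between 324 and 436 CPM in fasted cKO, against 103 to 125 CPM in fed cKO, while Chga in fasted wild type overlaps fed wild type.

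Vgf (chr5:137026392-137033351, plus strand), a granin whose peptides act on feeding and energy balance, had the largest fold change of the 10 genes. It had 405, 436, 324, 422 and 374 CPM in fasted cKO libraries 1 to 5, against 103, 119, 113, 111 and 125 CPM in fed cKO. It had 385, 404, 375, 343 and 359 CPM in fasted wild type, against 84.1, 73.7, 62.5, 68.3 and 69.2 CPM in fed wild type. The lowest fasted library lay far above the highest fed library in either genotype. The log2 fold change was 1.78 ± 0.0786 in cKO (SE, edgeR adjusted p = 3.38e-16), a 3.43-fold rise, and 2.38 ± 0.0808 in wild type (edgeR adjusted p = 2.17e-19), a 5.21-fold rise. By p-value Vgf was 7th of all 13237 genes in cKO and 9th in wild type.

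Scg2 (chr1:79434669-79440120, minus strand) encodes secretogranin II, the precursor of secretoneurin. Its level was 8382, 8734, 6509, 6915 and 7197 CPM in fasted cKO, against 3704, 4176, 3796, 3643 and 3720.1 CPM in fed cKO. Its level was 8239, 7678, 6089.8, 6943 and 6993 CPM in fasted wild type, against 2861, 2846, 2811, 2873 and 2891 CPM in fed wild type. Fed wild type was the tightest of the 40 sets of 5 libraries, with a coefficient of variation of 1.05%, and neither genotype showed overlap. The rise was 1.98-fold in cKO (log2 0.99 ± 0.0704 SE, edgeR adjusted p = 3.92e-12) and 2.52-fold in wild type (log2 1.33 ± 0.0709, edgeR adjusted p = 4.25e-15). Scg2 supplied 61.8 ± 3.26% of the counts of the 10 genes in fasted cKO, against 52.2 ± 1.02% in fed cKO, and 58.9 ± 4.56% in fasted wild type, against 48.8 ± 0.503% in fed wild type (SD, n = 5 each).

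Scg3 (chr9:75643189-75684056, minus strand) encodes secretogranin III, which binds chromogranin A at the granule membrane. It had 374, 406, 372, 385 and 404 CPM in fasted cKO, against 268, 287, 295, 286 and 286 CPM in fed cKO. It had 420.5, 379.9, 421, 402 and 457 CPM in fasted wild type, against 233, 244, 236, 239 and 248 CPM in fed wild type. All fasted libraries exceeded all fed ones of the same genotype, and the log2 fold change was 0.45 ± 0.051 in cKO (edgeR adjusted p = 2.42e-08) and 0.79 ± 0.0512 in wild type (edgeR adjusted p = 2e-13).

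Scg5 (chr2:113776362-113829121, minus strand) encodes the chaperone that keeps the Pcsk2 convertase from being activated too early. It had 1401, 1512, 1529, 1439 and 1374 CPM in fasted cKO, against 1024, 1054, 1092, 1039.6 and 1069.6 CPM in fed cKO. It had 1580.1, 1604, 1604, 1670.3 and 1691 CPM in fasted wild type, against 961, 1026, 999, 1045 and 1012 CPM in fed wild type. The groups did not overlap, with log2 fold changes of 0.46 ± 0.0428 in cKO (edgeR adjusted p = 6.3e-10) and 0.69 ± 0.0429 in wild type (edgeR adjusted p = 8.34e-14). With offsets for GC content and length these were smaller, at 0.26 in cKO and 0.38 in wild type, and still passed.

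Neither chromogranin gene rose in both genotypes. Chga (chr12:102554969-102565028, plus strand) encodes chromogranin A, a core granin used as a marker of neuroendocrine cells. It had 179.7, 181, 142, 178 and 202 CPM in fasted cKO, against 226, 219, 207, 219 and 241 CPM in fed cKO, and every fasted library was the lower. It had 139.8, 149, 154, 194 and 176 CPM in fasted wild type, against 153, 154, 157, 149 and 151 CPM in fed wild type, with overlap. Chga fell in cKO by 0.33 ± 0.0792 on the log2 scale (edgeR adjusted p = 0.000845), and in wild type its log2 fold change of 0.09 ± 0.0796 did not pass (edgeR adjusted p = 0.342). Both calls changed with offsets for GC content and length, under which the log2 fold change was -0.03 in cKO (edgeR adjusted p = 0.789) and 0.35 in wild type (edgeR adjusted p = 0.000121). With fasted libraries 3 to 5 the wild-type value passed as higher, at 0.19 (edgeR adjusted p = 0.0187). With fasted libraries 1 and 2 it was -0.10 and did not pass (edgeR adjusted p = 0.168). The cKO value passed as lower with either set, at -0.35 with libraries 3 to 5 and -0.30 with libraries 1 and 2.

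Chgb (chr2:132781278-132795079, plus strand) encodes chromogranin B, another core granin. It had 251, 256, 260, 298 and 322 CPM in fasted cKO, against 252, 265, 246, 254 and 257 CPM in fed cKO. It had 218, 189, 295, 342 and 331 CPM in fasted wild type, against 210, 225, 195, 195 and 215 CPM in fed wild type. In wild type, fasted libraries 1 and 2 lay among or below the fed ones and libraries 3 to 5 lay above them all. The log2 fold change was 0.12 ± 0.108 in cKO (edgeR adjusted p = 0.351) and 0.40 ± 0.108 in wild type (edgeR adjusted p = 0.002). With offsets for GC content and length the cKO value passed, at 0.28 (edgeR adjusted p = 0.0142). With fasted libraries 3 to 5 it was 0.21 in cKO (edgeR adjusted p = 0.00315) and 0.64 in wild type (edgeR adjusted p = 3.91e-12). With fasted libraries 1 and 2 it was -0.01 in cKO (edgeR adjusted p = 0.948) and -0.05 in wild type (edgeR adjusted p = 0.536).

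Of the enzymes, Pcsk1 (chr13:75089826-75134861, plus strand) encodes the convertase that makes the early cuts in many prohormones. It had 197, 197, 165, 176 and 171 CPM in fasted cKO, against 102, 106, 84.7, 92.2 and 101 CPM in fed cKO. It had 226, 196, 170.1, 186 and 208 CPM in fasted wild type, against 68.6, 72.3, 81.5, 86.9 and 82.2 CPM in fed wild type. Without overlap in either genotype, it rose 1.86-fold in cKO (log2 0.90 ± 0.0802, edgeR adjusted p = 2.81e-10) and 2.52-fold in wild type (log2 1.33 ± 0.081, edgeR adjusted p = 5.87e-14).

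Pcsk2 (chr2:143546156-143816285, plus strand) encodes the convertase that acts later in the granule. It had 56.6, 80.1, 69.9, 64.7 and 76.6 CPM in fasted cKO, against 51.8, 55.8, 55.2, 56.2 and 50.1 CPM in fed cKO. It had 81.8, 84.9, 86.1, 95.8 and 91.8 CPM in fasted wild type, against 46.3, 47.5, 45.8, 42.5 and 42.1 CPM in fed wild type. Fasted cKO library 1 was only just above the fed cKO libraries, while the wild-type groups were far apart. Its log2 fold change was 0.37 ± 0.0797 in cKO (edgeR adjusted p = 0.000292) and 0.97 ± 0.0798 in wild type (edgeR adjusted p = 2.61e-11). The counting rule for strands is not given, and 4.54% of the exon bases of Pcsk2 lie opposite Pcsk2os1.

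Cpe (chr8:64592542-64693054, minus strand) had 1275, 1234, 1295, 1396 and 1510.2 CPM in fasted cKO, against 1086, 1154, 1134, 1102 and 1063 CPM in fed cKO. In fasted wild type it had 1204, 1171, 1604, 1704 and 1816 CPM, against 903, 919.5, 900.4, 1001 and 985 CPM in fed wild type. All fasted libraries were above the fed ones, libraries 1 and 2 by the least. Cpe rose by a log2 fold change of 0.28 ± 0.0858 in cKO (edgeR adjusted p = 0.00794) and 0.67 ± 0.0861 in wild type (edgeR adjusted p = 1.25e-07). In wild type the value was 0.86 with fasted libraries 3 to 5 and 0.32 with libraries 1 and 2.

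Pam (chr1:97795114-98095646, minus strand) had 309, 291, 349.9, 366 and 393 CPM in fasted cKO, against 282, 308, 297, 296 and 301 CPM in fed cKO. In fasted wild type it had 305, 275, 372, 380.1 and 391 CPM, against 252, 256, 246, 244 and 232 CPM in fed wild type. The wild-type groups did not overlap and the cKO groups did, at library 2. Its log2 fold change was 0.20 ± 0.0806 in cKO (edgeR adjusted p = 0.0357) and 0.49 ± 0.0808 in wild type (edgeR adjusted p = 7.36e-06). The cKO call was lost without any one of fed cKO libraries 1, 3, 4 or 5 or fasted cKO libraries 3, 4 or 5, and adjusted p over the 10 removals of 1 library ran from 0.00947 to 0.134. With fasted cKO libraries 1 and 2 alone the value was 0.02 (edgeR adjusted p = 0.839), and with libraries 3 to 5 it was 0.32 (edgeR adjusted p = 3.6e-07). With upper-quartile scaling the cKO value was 0.17 and did not pass (edgeR adjusted p = 0.0916).

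Fed cKO neurons had higher levels of most of these genes than fed wild-type neurons. Of the 10 genes 7 were higher, against 5.87% of all tested genes, and 0 were lower, against 3.81% (edgeR, adjusted p under 0.05). All 5 cKO libraries lay above all 5 wild-type libraries for 8 of the 10, against 8.19% of all genes, and wholly below for 0, against 6.28%. The median log2 fold change was 0.28 for the 10 genes and 0.01 for all tested genes. Npy, at 0.49 (edgeR adjusted p = 0.000537), was also higher, and Agrp, at 0.15, did not pass (edgeR adjusted p = 0.288).

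Vgf averaged 114 ± 8.21 CPM in fed cKO, against 71.6 ± 8.04 CPM in fed wild type (SD, n = 5 each), which gave the top log2 fold change of the 10 genes at 0.68 ± 0.0789 (edgeR adjusted p = 6.44e-07). Chga averaged 222 ± 12.5 CPM in fed cKO, against 153 ± 3.08 CPM in fed wild type, a log2 fold change of 0.54 ± 0.0788 (edgeR adjusted p = 2.2e-05). Scg2 averaged 3808 ± 213 CPM in fed cKO, against 2856 ± 30.1 CPM in fed wild type, a log2 fold change of 0.41 ± 0.0699 (edgeR adjusted p = 0.000158). These 3 granins were higher in every fed cKO library than in any fed wild-type library. Scg3, at 0.24 (edgeR adjusted p = 0.00187), also rose without overlap. Scg5 had 1056 ± 26.4 CPM in fed cKO, against 1009 ± 31.8 CPM in fed wild type, and did not pass (edgeR adjusted p = 0.373).

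Among the enzymes Pcsk1 averaged 97.3 ± 8.68 CPM in fed cKO, against 78.3 ± 7.57 CPM in fed wild type (log2 0.31, edgeR adjusted p = 0.0118), with overlap at 1 cKO library. In fed libraries 1 and 2 Pcsk1 averaged 104 CPM in cKO, against 70.5 CPM in wild type. In fed libraries 3 to 5 the means were closer, at 92.6 CPM in cKO and 83.5 CPM in wild type. These fed sets were not fitted apart. Over the 10 removals of 1 library the edgeR adjusted p of Pcsk1 ran from 0.00618 to 0.0494. Pcsk2 averaged 53.9 ± 2.71 CPM in fed cKO, against 44.9 ± 2.41 CPM in fed wild type (log2 0.26, edgeR adjusted p = 0.0335). Pam averaged 297 ± 9.54 CPM in fed cKO, against 246 ± 9.06 CPM in fed wild type (log2 0.27, edgeR adjusted p = 0.0297). The cKO and wild-type libraries of Pcsk2 and Pam did not overlap, yet both calls sat near the threshold. With library totals neither Pcsk2 (edgeR adjusted p = 0.0625) nor Pam (0.0697) passed, which left 5 of the 10 genes called, beside 1300 of all genes. With offsets for GC content and length neither passed either (0.1 for Pcsk2 and 0.0675 for Pam) while Chgb did (0.0466). This left 6 of the 10 called, beside 1454 of all genes. Pcsk2 did not pass without any one of fed wild-type libraries 1, 3, 4 or 5 or fed cKO libraries 2, 3 or 4 (adjusted p from 0.0363 to 0.089 over the 10 removals). Pam did not pass without any one of fed wild-type libraries 1, 3, 4 or 5 or fed cKO libraries 2, 3, 4 or 5 (adjusted p from 0.0386 to 0.0792). Chgb, at a log2 fold change of 0.29 (edgeR adjusted p = 0.0859), and Cpe, at 0.23 (edgeR adjusted p = 0.0842), did not pass although their groups did not overlap. Both passed in a fit to the 10 fed libraries alone (edgeR adjusted p = 2.77e-06 for Chgb and 2.35e-06 for Cpe). That fit called 9 of the 10 genes as higher, with Pcsk2 and Pam among them. Of all genes it called 1518 higher and 1434 lower, against 777 and 504 in the fit to all groups.

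In fasted neurons 2 of the 10 genes passed between genotypes, a share like the 20.3% of all tested genes, and both were lower in cKO. Against 11.5% higher and 8.84% lower among all tested genes, 0 of the 10 were higher and 2 were lower in fasted cKO than in fasted wild type (edgeR, adjusted p under 0.05), and 2 lay wholly below and 0 wholly above, against 3.91% below and 5.05% above among all genes. Scg5 averaged 1451 ± 67.6 CPM in fasted cKO, against 1630 ± 48.1 CPM in fasted wild type, a log2 fold change of -0.17 ± 0.0427 (edgeR adjusted p = 0.00613). Pcsk2 averaged 69.6 ± 9.37 CPM in fasted cKO, against 88.1 ± 5.64 CPM in fasted wild type, a log2 fold change of -0.34 ± 0.0795 (edgeR adjusted p = 0.00301). The libraries of both genes did not overlap between genotypes, but neither gene passed with fasted libraries 1 and 2 alone.

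The other 8 genes lay between -0.16 for Cpe and 0.12 for Chga and did not pass. Vgf averaged 392 ± 44.4 CPM in fasted cKO, against 373 ± 23.5 CPM in fasted wild type, and its log2 fold change of 0.07 ± 0.0757 did not pass (edgeR adjusted p = 0.552). A value that does not pass does not show that the genotypes are alike. Cpe passed without fasted wild-type library 1 (log2 -0.23, edgeR adjusted p = 0.0355) or library 2 (log2 -0.24, edgeR adjusted p = 0.0248). With libraries 3 to 5 alone 4 genes were lower, namely Scg3 at -0.15, Scg5 at -0.20, Pcsk2 at -0.38 and Cpe at -0.29. Calls over all genes also rose in that fit, to 1933 higher and 1707 lower, against 1517 and 1170 with all libraries. With libraries 1 and 2 alone neither Scg5 (edgeR adjusted p = 0.138) nor Pcsk2 (edgeR adjusted p = 0.133) passed, and Chga and Chgb were higher at 0.33 each (edgeR adjusted p = 0.00229 for Chga and 0.00312 for Chgb). The same fit called 1014 of all genes higher and 668 lower.

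The log2 fold change with fasting was lower in cKO than in wild type for 8 of the 10 genes, against 8.44% of all tested genes, and higher for 0 of the 10, against 8.87%. For 7 of the 8 genes it was a smaller rise in cKO, and for Chga it was a fall in cKO. This was tested as the interaction of genotype with fasting, the log2 fold change in cKO minus that in wild type. It uses the same 20 libraries as the comparisons above and is not independent of them. The median interaction was -0.37 for the 10 genes and -0.03 for all tested genes, and all 10 values were below 0 with all libraries, though Chgb was at 0.04 with fasted libraries 1 and 2 alone.

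**Figure D3:**
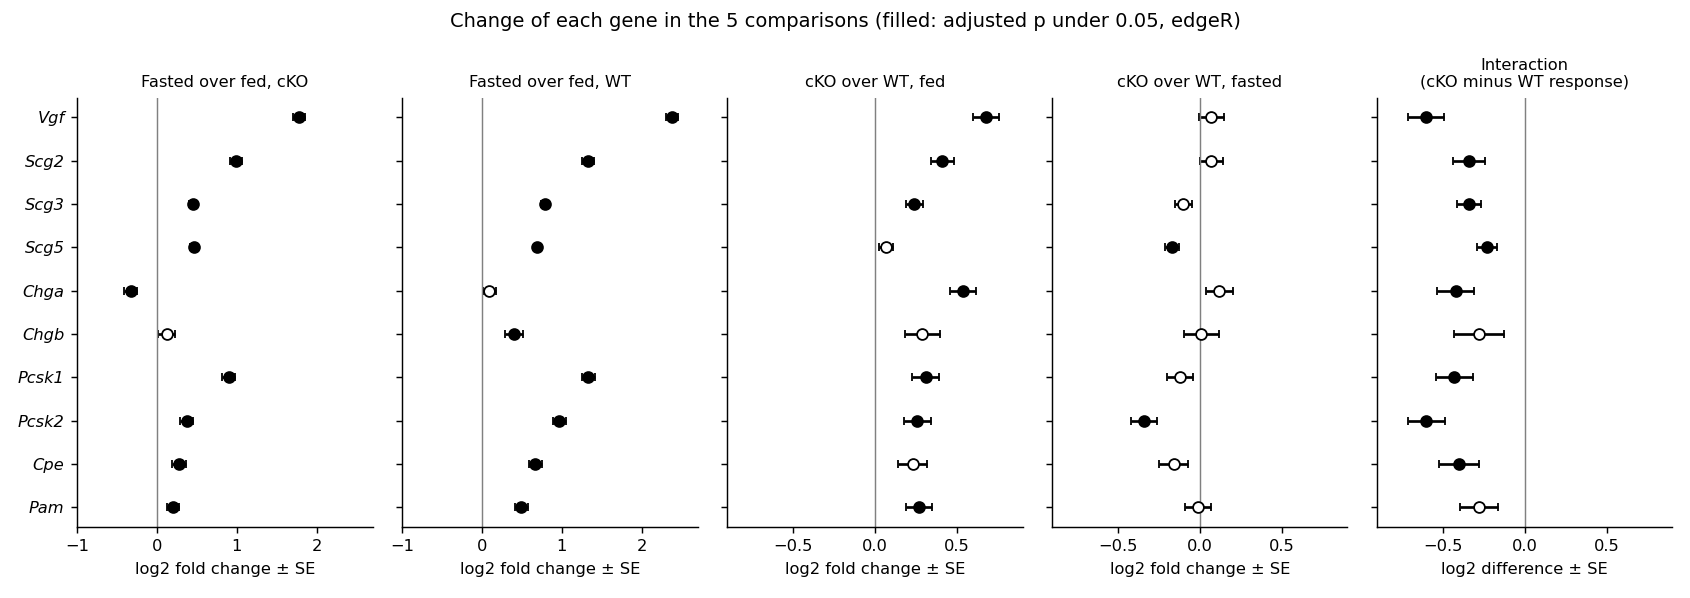
Log2 change with its standard error for the 10 genes in each of 5 comparisons. Filled points passed an adjusted p of 0.05 in edgeR. In the interaction panel all 10 points lie left of 0, from -0.60 for Vgf and Pcsk2 to -0.23 for Scg5, and in the fasted genotype panel 2 points are filled.

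Vgf and Pcsk2 shared the lowest interaction, -0.60 ± 0.109 for Vgf (edgeR adjusted p = 0.000293) and -0.60 ± 0.112 for Pcsk2 (edgeR adjusted p = 0.000421). For Vgf the fasted values were close in both genotypes and the fed values differed. For Pcsk2 the genotypes differed in both states, upward in fed cKO and downward in fasted cKO. Pcsk1, at -0.43 (edgeR adjusted p = 0.00782), Scg2, at -0.34 (edgeR adjusted p = 0.015), and Scg3, at -0.34 (edgeR adjusted p = 0.00131), had fasted values that did not pass between genotypes. Scg5, at -0.23 (edgeR adjusted p = 0.00745), had fed values that did not pass, and with offsets for GC content and length its interaction did not pass either (-0.12, edgeR adjusted p = 0.192).

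Chga, at -0.42 (edgeR adjusted p = 0.00926), was the 1 gene that was lower when fasted in cKO. Cpe, at -0.40 (edgeR adjusted p = 0.0237), did not pass without fasted wild-type library 5 (edgeR adjusted p = 0.0605) or with library totals (edgeR adjusted p = 0.0677). Chgb, at -0.28 (edgeR adjusted p = 0.213), and Pam, at -0.28 (edgeR adjusted p = 0.0844), did not pass. Chgb passed without fasted wild-type library 2 (edgeR adjusted p = 0.0261). Pam passed without fasted wild-type library 1 (edgeR adjusted p = 0.0431), fasted wild-type library 2 (edgeR adjusted p = 0.0128) or fasted cKO library 5 (edgeR adjusted p = 0.0398). With fasted libraries 3 to 5 all 10 genes passed as lower, while lower calls over all genes rose to 1793, against 1117 with all libraries. With libraries 1 and 2, 6 passed, and Chga (edgeR adjusted p = 0.11), Chgb (0.793), Cpe (0.15) and Pam (0.0677) did not. Over all genes, 1001 were lower in that fit. The cargo peptide genes also had interactions below 0, at -0.55 for Agrp (edgeR adjusted p = 0.0019) and -0.75 for Npy (edgeR adjusted p = 0.000194).

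Because these genes did not move in step, their proportions within a library changed. Vgf counts were 2.23 ± 0.223 times those of Chga in fasted cKO, against 0.515 ± 0.0368 in fed cKO, and 2.34 ± 0.427 times in fasted wild type, against 0.469 ± 0.055 in fed wild type (SD, n = 5 each). Pam counts per Npy count were 0.00776 ± 0.00194 in fasted cKO, against 0.0127 ± 0.000444 in fed cKO, and 0.00672 ± 0.00213 in fasted wild type, against 0.0148 ± 0.00092 in fed wild type. Both ratios separated fasted from fed libraries without overlap, and Pam counts were lower relative to Npy counts in fasted libraries of both genotypes. Pcsk1 counts per Pcsk2 count were 2.65 ± 0.496 in fasted cKO, against 1.81 ± 0.215 in fed cKO, without overlap. In wild type they were 2.25 ± 0.331 when fasted, against 1.75 ± 0.25 when fed, with overlap. These ratios are descriptions and were not tested.

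The ratio of Scg2 to Cpe counts also differed between the numbered fasted libraries. It was 6.57 and 7.08 in fasted cKO libraries 1 and 2, while libraries 3 to 5 had 5.03, 4.95 and 4.77. It was 6.84 and 6.56 in fasted wild-type libraries 1 and 2, while libraries 3 to 5 had 3.80, 4.07 and 3.85. Fed libraries ran from 3.31 to 3.62 in cKO and from 2.87 to 3.17 in wild type with no such split. Every fasted library was above every fed library of its genotype, so the fasting difference in this ratio was present in both sets.

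**Figure D4:**
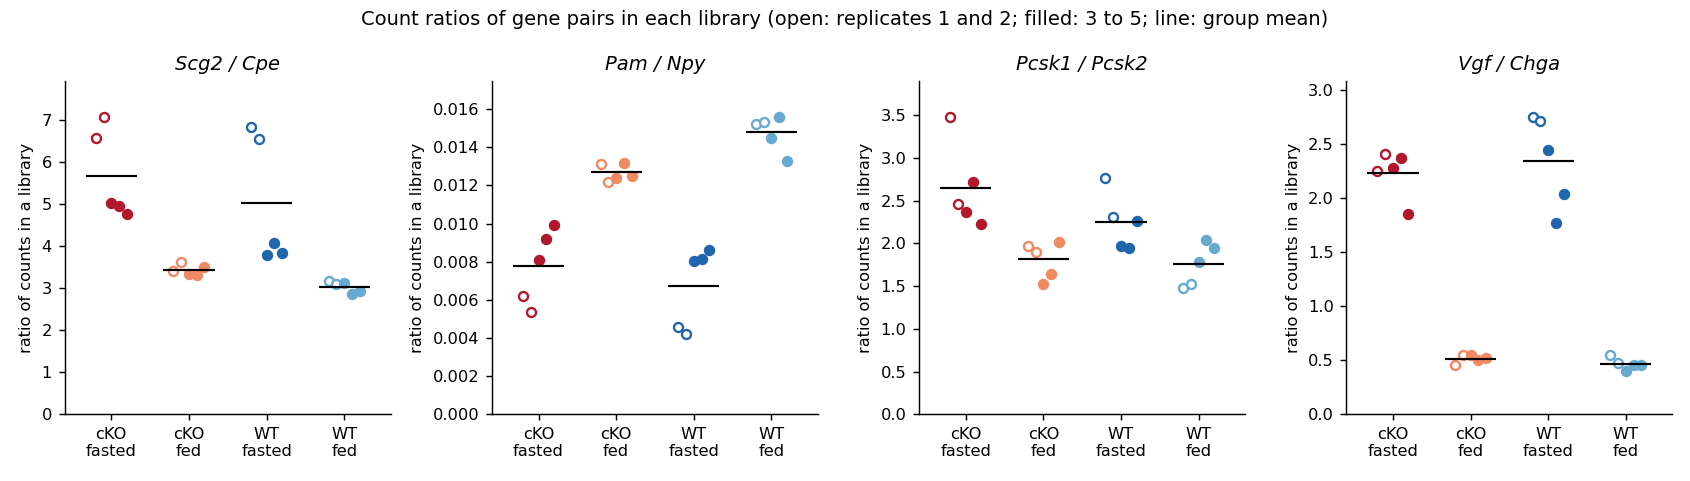
Ratios of raw counts of 4 gene pairs in each of 20 libraries, by group (vertical axes start at 0). Points are libraries, open for numbers 1 and 2 and filled for 3 to 5, and lines are group means. For Scg2 over Cpe the open fasted points (6.56 to 7.08) stand above the filled ones (3.80 to 5.03), and for Pam over Npy they stand below them.

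Other genes of the granule pathway did not share one direction. Of 55 listed genes 54 were in the table and 51 were tested. Fasting raised 15 and lowered 21 in cKO, and raised 17 and lowered 14 in wild type, so that 70.6% passed in cKO, beside 53.1% of all tested genes, and 60.8% in wild type, beside 60.9%. In fed cKO against fed wild type 5 were higher and 1 lower, or 11.8% beside 9.68% of all tested genes. In fasted cKO against fasted wild type 3 were higher and 7 lower, or 19.6% beside 20.3%. The interaction was lower for 9 and higher for 3, or 23.5% beside 17.3%.

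Among granule formation genes, Ica1, whose product acts on granule budding from the Golgi, had a log2 fold change with fasting of 0.57 in cKO (edgeR adjusted p = 1.53e-09) and 0.94 in wild type (edgeR adjusted p = 4.27e-14), and its interaction was -0.37 (edgeR adjusted p = 0.0017). Ptprn, a granule membrane protein, rose by 0.42 in cKO (edgeR adjusted p = 1.29e-05) and 0.75 in wild type (edgeR adjusted p = 3.73e-10). Of the 16 release genes tested, fasting raised 4 and lowered 9 in cKO, beside 26.0% higher and 27.0% lower among all tested genes. In wild type it raised 5 and lowered 7, beside 29.6% higher and 31.3% lower. Rab3b, a vesicle GTPase, rose by 1.29 in cKO (edgeR adjusted p = 6.13e-15) and 1.38 in wild type (edgeR adjusted p = 4.22e-16). Syt5, a synaptotagmin, was higher in fed cKO by 0.32 (edgeR adjusted p = 9.51e-05) with an interaction of -0.42 (edgeR adjusted p = 0.000181). Sytl4, which encodes the Rab27 effector granuphilin, had a log2 fold change of -1.25 in cKO (edgeR adjusted p = 3.89e-07) and -1.63 in wild type (edgeR adjusted p = 9.94e-09). Rab27b had -0.59 in cKO (edgeR adjusted p = 6.09e-06) and -0.86 in wild type (edgeR adjusted p = 6.49e-09).

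Pam needs copper, and of the 6 listed copper and ascorbate genes 4 were higher with fasting in cKO, beside 26.0% of all tested genes, and 3 in wild type, beside 29.6%. With library totals Atp7a (edgeR adjusted p = 0.355) and Ccs (0.235) did not pass in cKO, nor Ccs (0.121) in wild type. The copper chaperone Atox1 rose by 0.75 in cKO (edgeR adjusted p = 2.93e-10) and 0.79 in wild type (edgeR adjusted p = 5.61e-11). The copper transporter Slc31a1 rose by 0.97 in cKO (edgeR adjusted p = 2.77e-10) and 0.59 in wild type (edgeR adjusted p = 1.01e-06). Of the 6 other convertases tested, 0 rose and 2 fell with fasting in cKO, beside 26.0% higher and 27.0% lower among all tested genes, and 1 rose and 0 fell in wild type, beside 29.6% and 31.3%. Pcsk4 did not pass in cKO with offsets for GC content and length (edgeR adjusted p = 0.289). Pcsk6 did not pass in wild type with library totals (edgeR adjusted p = 0.0634) or with fasted libraries 3 to 5 (edgeR adjusted p = 0.0911). Mbtps1, a Golgi protease, fell by 0.59 in cKO (edgeR adjusted p = 2.23e-06). Among trimming and modifying enzymes the aminopeptidase Rnpep had a log2 fold change of -1.02 in cKO (edgeR adjusted p = 2.71e-08) and -1.52 in wild type (edgeR adjusted p = 1.08e-11). Pcsk1n, which encodes an inhibitor of the Pcsk1 convertase, had -0.30 in cKO (edgeR adjusted p = 0.00269) and -0.23 in wild type (edgeR adjusted p = 0.0135). The Pcsk1n calls were lost with offsets for GC content and length, at -0.09 in cKO and -0.11 in wild type. The wild-type call was also lost without fasted wild-type library 1 (edgeR adjusted p = 0.052) and with fasted libraries 3 to 5 (-0.10, edgeR adjusted p = 0.11).

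Likeness of pattern was measured as the root-mean-square difference of log2 CPM, centred on each gene's mean, over the 20 libraries and against 9973 genes. Scg2 and Pcsk1 were each the second closest gene to the other, at 0.123. Scg2 was closest to Smc6 at 0.121 and Pcsk1 to Ghr at 0.121. Chgb had Pam as its closest gene, at 0.107. Vgf was closest to Rad18 at 0.209, Fkbp5 at 0.213 and Btg1 at 0.218, while the nearest of the other 9 granule genes was Scg2 at 0.488. Scg3 was closest to Ap1s2 at 0.0597, Scg5 to Mdh1 at 0.0497, Pcsk2 to Mphosph6 at 0.11, Cpe to Saraf at 0.0783, Pam to Syt4 at 0.0915 and Chga to Stmn2 at 0.142. These are descriptions over libraries that share their 4 groups, and a gene that moves little lies close to many others.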

How the data were processed

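AgRP neurons sorted by tdTomato were profiled as 20 SMART-seq v4 and Nextera XT libraries after 15 PCR cycles, per the labels' protocols, and neither kit marks strand. Per the submitters' processing notes, Trimmomatic 0.36, HISAT2 2.1.0, featureCounts of Subread 1.6.2 and DESeq2 1.20.0 were used on GRCm38 (mm10). Neither the gene annotation nor a strand setting for counting is stated there. Raw counts as deposited by the authors were analysed. Their deposited normalized signal, in which the counts of a library share 1 divisor, served as a check only.

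Counts were fitted with edgeR 4.0.16 in R 4.3.3 (limma 3.58.1): TMM, filterByExpr (minimum count 10, minimum total 15), 4 group means over 20 libraries, the quasi-likelihood test and Benjamini-Hochberg adjustment over 13237 genes at 0.05. SE is the log2 fold change divided by the root of F. The genes with no count numbered 3897. Errors beside means are SD. Coordinates, exon lengths and overlaps come from GENCODE on GRCm38, with results in 1-based positions. The script was tested on simulated data.

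The 10 genes and the 6 lists of 55 other genes were chosen with earlier results of these data known. Named genes were the 10, Phf6, Agrp and Npy, up to 4 list members per comparison with the smallest p among those that passed, and for each of the 10 genes the 3 most alike with a mean log2 CPM of at least 2. Alternatives were DESeq2 1.42.0, other scalings and filters, GC and length offsets, a replicate block, the compared groups alone and removal of libraries. Depth ran from 8494499 to 13573524 counts. Counting error alone would give the 10 genes a coefficient of variation of 0.4% to 4.19% over the 40 sets of 5 libraries, and Chga in fed wild type (2.01% observed, 2.2% from counting) was the 1 set that varied less than that.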

Additional observations from a re-analysis of the deposited data

Results flagged for a closer look

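In fed cKO, Scg2 in library 2 stood apart at 4176 CPM, with the nearest of the other 4 libraries at 3796 CPM and a gap of 0.713 of the whole range. It was 1 of 40 sets of 5 libraries with such a gap, and chance gives about 1 in 20. The response to fasting differed between cKO and wild type by the interaction test for 8 genes, at log2 values of -0.60 for Vgf, -0.34 for Scg2, -0.34 for Scg3, -0.23 for Scg5, -0.42 for Chga, -0.43 for Pcsk1, -0.60 for Pcsk2 and -0.40 for Cpe.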

How the results depend on the processing

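Vgf, Scg2, Scg3 and Pcsk1 kept their direction and call for fasting in each genotype, for cKO against wild type in fed mice and for the interaction under every alternative run, single-library removals included. No alternative split the fed libraries by number. In cKO, fasting gave Vgf 1.58 to 2.15 on the log2 scale outside those removals, and in wild type 2.12 to 2.77. Fitted to the compared groups alone, 2952 genes were called between genotypes in fed mice, against 1281 in the fit to all groups, and 1352 in fasted mice, against 2687. With fasted libraries 3 to 5, 4 of the 10 genes and 3640 of all genes were called between fasted genotypes. For the interaction these were 10 of the 10 and 3603 of all genes. With libraries 1 and 2, 2 of the 10 and 1682 of all genes were called between fasted genotypes, and 6 and 2210 for the interaction. Leaving out 1 library at a time, the called genes among the 10 numbered 8 to 9 for fasting in cKO, 9 to 9 in wild type, 5 to 7 for fed genotypes, 2 to 3 for fasted genotypes and 7 to 10 for the interaction. Over all genes, in the same order, these removals gave 6518 to 6960, 7723 to 7937, 905 to 1022, 2030 to 3193 and 1941 to 2700. Signs turned, none of them past the threshold, as follows. Between fasted genotypes Chgb was -0.03 with upper-quartile scaling and -0.14 with libraries 3 to 5, Chga -0.01 with libraries 3 to 5, Cpe 0.09 and Pam 0.06 with libraries 1 and 2, and Pam 0.03 with library totals, while single removals gave -0.10 to 0.10 for Chgb and -0.08 to 0.04 for Pam. With fasting in cKO, Chgb was -0.07 with library totals and -0.01 with libraries 1 and 2. With fasting in wild type, Chga was -0.17 with library totals and -0.10 with libraries 1 and 2, and Chgb -0.05 with libraries 1 and 2. Scg5 in fed genotypes was -0.05 with GC and length offsets, and the Chgb interaction 0.04 with libraries 1 and 2. The causes were not tested. Of called genes, the share that was higher was 29.2% with library totals against 49.0% with TMM for fasting in cKO, 28.3% against 48.6% for fasting in wild type, 47.5% against 60.7% for fed genotypes, 67.2% against 56.5% for fasted genotypes and 67.2% against 51.2% for the interaction. It was 43.9% for fasted genotypes with upper-quartile scaling and 45.7% for fed genotypes with GC and length offsets.

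Replicate numbers are shared between groups, but only 2 of 20 same-numbered pairs had deviations correlated over 0.1 (from -0.045 to 0.131), and not every library correlated best with its own number. Between fasted genotypes all 5 correlations were above 0, from 0.0221 to 0.131, beside a median of -0.0512 for pairs of other numbers. With the replicate number as a block, called genes among the 10 numbered 9 for fasting in cKO, 9 in wild type, 8 for fed genotypes, 2 for fasted genotypes and 8 for the interaction. Over all genes, in the same order, they numbered 7069, 8090, 1318, 2785 and 2347. Cpe in fed genotypes was the 1 of the 10 genes whose call changed (edgeR adjusted p = 0.0331).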
